A study of Mus musculus with 6 samples.

Results

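The Robo, Slit and netrin genes build the system that steers growing axons toward, across and away from the midline of the nervous system, and 10 of them were followed here in neurons of the preBötzinger complex (preBötC), the part of the medulla that generates the inspiratory rhythm. They were taken by name from the 49568 gene names listed for each sample: the receptors Robo1, Robo2 and Robo3, their ligands Slit1, Slit2 and Slit3, the netrin ligand Ntn1, and the netrin receptors Dcc, Neo1 and Unc5c. The study sequenced RNA from 6 samples, each of 15 neurons drawn by micropipette from a slice of 1 mouse at postnatal day 2, a different mouse for each sample. All mice were Dbx1 CreERT2; Rosa26 tdTomato, in which a tamoxifen-inducible Cre under the control of Dbx1 switches on tdTomato in cells that descend from Dbx1-expressing progenitors, and tamoxifen was given to the pregnant dams, so the allele, the reporter and the drug were common to both groups. The 3 Dbx1 samples held somata with tdTomato fluorescence and the 3 non-Dbx1 samples held neuronal somata without it. A soma without fluorescence may also descend from a progenitor in which no recombination took place, so the second group was defined by the absence of the reporter.

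Slit proteins are secreted and act through Robo1 and Robo2 to repel axons, whereas netrin-1 attracts axons through Dcc and repels them through the Unc5 receptors. Robo3 is the divergent Robo receptor that commissural axons need in order to cross the midline, and in mammals it binds the secreted protein Nell2 rather than the Slits. Neurons derived from Dbx1-expressing progenitors in the preBötC are known for commissural axons that couple the left and right sides, and loss of Robo3 from these cells uncouples the breathing rhythm of the sides.

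At postnatal day 2 most of these genes were expressed in both groups. Neo1 and Robo2 were the most abundant by RPKM (reads on a gene scaled to its exon length and to the reads of the sample), Robo3 was at the limit of detection, and none of the 10 differed between Dbx1 and non-Dbx1 samples at a false discovery rate (FDR) of 0.1. Each value below is an RPKM as deposited unless another scale is named, and L2FC is the difference between group means of log2(RPKM + 1), Dbx1 minus non-Dbx1. The test covered 17614 genes, those above 0 in 3 samples or more, and all 10 genes were among them. Of these, limma called 0.00568% (1 gene, not among the 10) at FDR under 0.1, and 5.2% had an unadjusted p under 0.05, against 0 of the 10. The authors, who tested read counts with DESeq2, reported more genes at this threshold, among them Gata2, Hif1a, Pbx3 and Syt10. L2FC was above 0 for 5 of the 10 and below 0 for the other 5, with a median of 0.027 beside 0.0089 over all tested genes.

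Between 6464675 and 9432958 reads per sample fell on genes. The 6 neuronal markers were all above 0 in every sample, with summed RPKM of 994 to 1708 in the Dbx1 samples and 993 to 1380 in the non-Dbx1 samples. Dbx1 itself was listed at 0 in all 6 samples, so the label could not be read from its transcript, and Evx1, a transcription factor of the Dbx1 lineage, was at 0, 7.84 and 3.67 in the Dbx1 samples and at 0 in all 3 non-Dbx1 samples. In the Dbx1 sample without Evx1, the authors reported En1, which marks another class of interneurons. They proposed that this sample may have included such neurons unintentionally. Some libraries stood apart in markers of other cells. Non-Dbx1 replicate 1 had the highest sums for red cell (13946, against 89.6 to 1198 elsewhere) and oligodendrocyte lineage genes (388, against 16.4 to 73.6). Non-Dbx1 replicate 2 had the highest sum for 3 endothelial genes (65.4, against 0.0104 to 2.96), and non-Dbx1 replicate 3 had the highest for 5 motor neuron genes (157, against 2.997 to 27.8) and was the only sample with Isl1 above 0. Not every gene followed the sum of its list. Cldn5 made 63.7 of the endothelial sum, and Pecam1 was highest in Dbx1 replicate 2 (0.507). Slc5a7 was highest in non-Dbx1 replicate 2 (10.9, against 7.91 in non-Dbx1 replicate 3). Olig1 was highest in Dbx1 replicate 3 (63.9, against 62.4 in non-Dbx1 replicate 1) and Mog in Dbx1 replicate 1 (0.905, against 0.514). The other genes of these lists were highest in the sample with the highest sum. Astrocyte sums were 17.0 to 28.1 in the Dbx1 and 27.0 to 33.9 in the non-Dbx1 samples, and microglial sums reached at most 2.97. The astrocyte genes disagreed. Slc1a3 was higher in every non-Dbx1 sample (4.64 to 11.5, against 4.18 to 4.54). Gfap was higher in every Dbx1 sample (0.271 to 3.96, against 0 to 0.126), and Slc1a2, Aldh1l1 and Aqp4 overlapped between the groups. Slc17a6, the transporter of excitatory neurons, was at 47.2 to 128 in the Dbx1 and 13.6 to 35.1 in the non-Dbx1 samples, and 4 inhibitory markers summed to 45.7 to 143 and 97.7 to 143. The part of these differences in the results that follow was not tested. In samples of pooled neurons, fewer cells expressing a gene and less RNA per cell cannot be told apart.

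**Figure D1:**
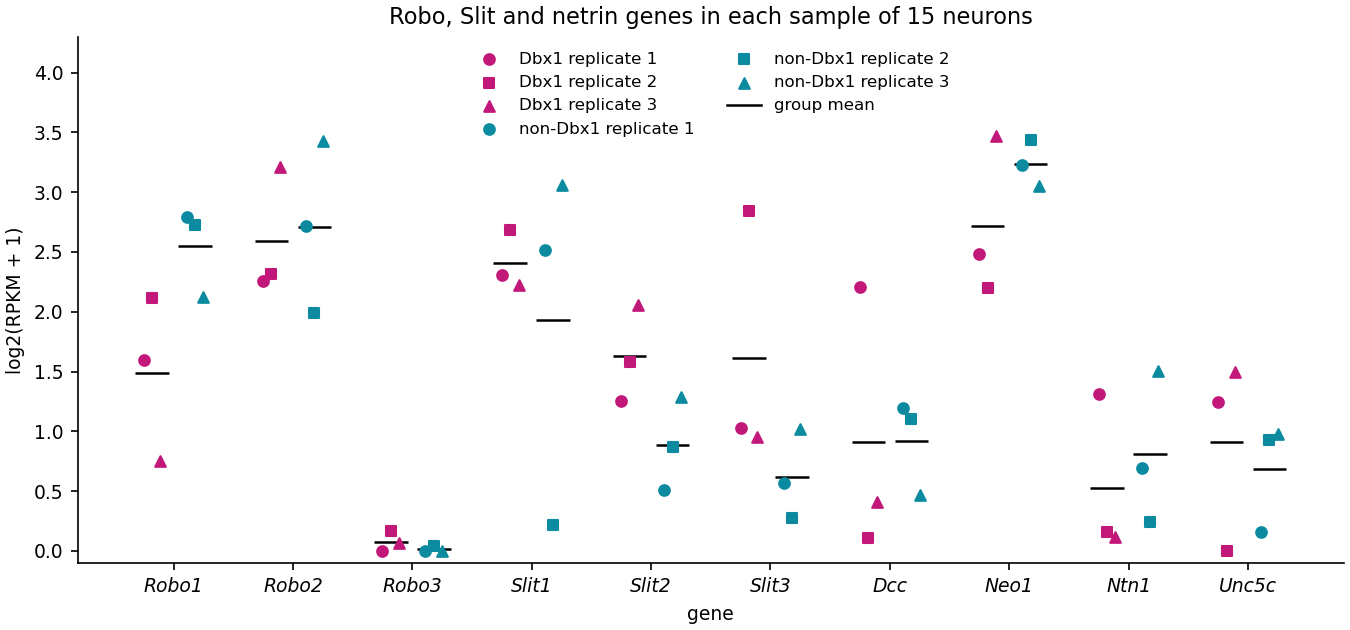
Level of each of the 10 genes in each sample, with log2(RPKM + 1) on the vertical axis, genes on the horizontal axis, Dbx1 samples in magenta, non-Dbx1 samples in teal, a marker shape for each replicate number (which does not pair samples) and a black line at each group mean. The groups overlapped for every gene except Robo1, where they were 3.34 and 3.36 RPKM at their nearest and overlapped with size factors, and Robo3 lay at or near 0 throughout.

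Among the receptors for Slits, Robo1 (ENSMUSG00000022883, chromosome 16, 72308306 to 73046095, plus strand of GRCm38) measured 2.03, 3.34 and 0.684 in Dbx1 samples, against 5.93, 5.61 and 3.36 in non-Dbx1 samples. Every non-Dbx1 sample thus lay above every Dbx1 sample, but Dbx1 replicate 2 and non-Dbx1 replicate 3 almost met. Those values came from 190 and 240 reads, and their exact Poisson intervals, 2.88 to 3.85 and 2.95 to 3.82 at 95%, overlapped nearly in full. The group means were 2.02 ± 1.33 and 4.97 ± 1.40 (SD, n = 3). The L2FC was -1.06 with an SE of 0.581 (95% interval -2.39 to 0.27), which limma did not call (FDR = 0.924), while an exact permutation of the samples returned p = 0.10, the smallest for 3 against 3. Robo1 was the only one of the 10 genes with non-overlapping groups, beside 10.6% of all tested genes and 5.24% with the non-Dbx1 samples higher. With median-of-ratios size factors, the order at the border turned (3.20 in Dbx1 replicate 2 and 3.18 in non-Dbx1 replicate 3) and the groups overlapped. With 1 sample left out the L2FC ran from -1.37 (without Dbx1 replicate 2) to -0.69 (without Dbx1 replicate 3). It was -0.94 without non-Dbx1 replicate 1, which had the highest red cell and oligodendrocyte lineage sums. It was -1.27 without non-Dbx1 replicate 3, which had the highest motor neuron sum.

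Robo2 (ENSMUSG00000052516) lies on the minus strand of the same chromosome, at 73891839 to 74411825. It measured 3.79, 3.97 and 8.27 in Dbx1 samples, against 5.58, 2.96 and 9.75 in non-Dbx1 samples. Both groups ran from low to high values and overlapped widely, with the third replicate of each group the highest. The means were 5.34 ± 2.54 and 6.10 ± 3.42 (SD, n = 3), and the L2FC was -0.11 (SE 0.536, 95% interval -1.34 to 1.11, limma FDR = 0.990). It changed sign to 0.24 when non-Dbx1 replicate 3 was left out, and to 0.052 or 0.027 without Dbx1 replicate 1 or 2. Robo1 and Robo2 did not follow each other across samples. The Dbx1 sample with the least Robo1, replicate 3, had the most Robo2, so that Robo2 was 12.1 times Robo1 in that sample against 0.528 to 2.90 times in the other 5.

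Robo3 (ENSMUSG00000032128, chromosome 9, 37415669 to 37433246, minus strand) rested on 18 reads in all 6 samples together. Its RPKM was 0, 0.122 and 0.0480 in Dbx1 samples, from 0, 11 and 4 reads, against 0, 0.0293 and 0 in non-Dbx1 samples, from 0, 3 and 0 reads. It therefore reached the floor of 3 reads in 2 Dbx1 samples and 1 non-Dbx1 sample, and in the 3 samples without a read that floor allows an RPKM of up to 0.0315, 0.0387 and 0.0266. The mean over 6 samples, 0.0332 RPKM, ranked 24349th among the 27067 genes with any read, where the other members ranked from 5560th (Neo1) to 15202nd (Ntn1). A difference between groups was not detectable at this depth (L2FC 0.064, SE 0.136, limma FDR = 0.978), and at such levels the added 1 RPKM keeps an L2FC near 0 whatever the fold, the L2FC being 0.45 with a pseudocount of 0.1. Reads from amplified cDNA are not independent molecules, so these floors and intervals cover counting error only.

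The Slits were all detected in every sample. Slit1 (ENSMUSG00000025020, chromosome 19, 41600257 to 41743665, minus strand) measured 3.94, 5.42 and 3.67 in Dbx1 samples, against 4.73, 0.162 and 7.35 in non-Dbx1 samples. The Dbx1 samples were close to each other, 1.47-fold from lowest to highest, whereas the non-Dbx1 samples spanned 45.4-fold and enclosed them. The low value, in non-Dbx1 replicate 2, came from 11 reads against 203 to 551 elsewhere. The L2FC of 0.47 (SE 0.771, 95% interval -1.29 to 2.23, limma FDR = 0.968) had its sign from that sample and was -0.39 without it.

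Slit2 (ENSMUSG00000031558, chromosome 5, 47983138 to 48307733, plus strand) measured 1.39, 1.99 and 3.16 in Dbx1 samples, against 0.421, 0.822 and 1.43 in non-Dbx1 samples. Only the lowest Dbx1 and the highest non-Dbx1 sample were out of order, at 1.39 and 1.43. The mean was 2.44-fold that of the non-Dbx1 samples (2.18 ± 0.903 against 0.892 ± 0.510, SD, n = 3). The L2FC of 0.75 had an SE of 0.515 and a 95% interval of -0.43 to 1.92, and it was not called (limma FDR = 0.936, exact permutation p = 0.20). It was above 0 with each sample left out, from 0.53 to 0.95.

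Slit3 (ENSMUSG00000056427, chromosome 11, 35121224 to 35708507, plus strand) measured 1.04, 6.18 and 0.939 in Dbx1 samples, against 0.484, 0.207 and 1.02 in non-Dbx1 samples. A single sample, Dbx1 replicate 2, held most of it, with 342 reads against 13 to 71 in the other 5. The L2FC of 0.99 (SE 0.623, 95% interval -0.43 to 2.41) was the largest of the 10 in favour of the Dbx1 samples and was not called (limma FDR = 0.936, exact permutation p = 0.20). It was 0.37 without Dbx1 replicate 2, with the SDs of the groups over all samples at 2.998 and 0.416 RPKM.

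**Figure D2:**
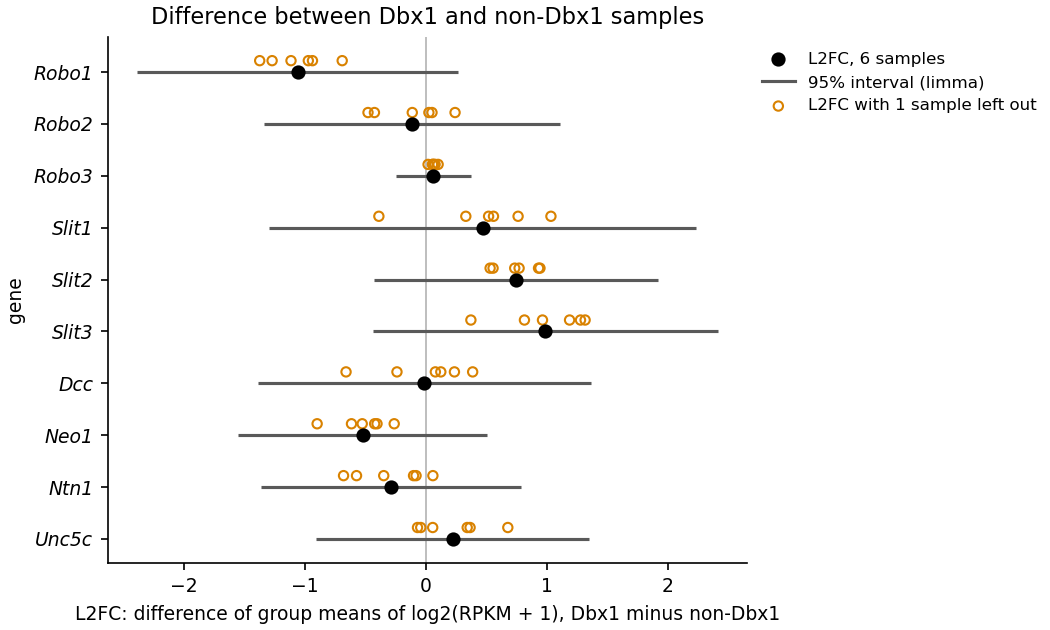
L2FC (horizontal axis, Dbx1 minus non-Dbx1 on the log2(RPKM + 1) scale) of each of the 10 genes, with black points for the fit to 6 samples, lines for its 95% limma interval and open orange circles for fits with 1 sample left out. Every interval includes 0, and the circles of Robo2, Slit1, Dcc, Ntn1 and Unc5c lie on both sides of it.

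Of the netrin genes, Ntn1 and Unc5c varied widely within each group, and Dcc within the Dbx1 samples. Ntn1 (ENSMUSG00000020902, chromosome 11, 68209364 to 68400823, minus strand), which encodes netrin-1, measured 1.48, 0.113 and 0.0817 in Dbx1 samples, against 0.616, 0.183 and 1.84 in non-Dbx1 samples. It was thus high in 1 sample of each group, at 83 and 122 reads, and low in the rest, down to 4 reads. The L2FC was -0.29 (SE 0.472, 95% interval -1.36 to 0.79, limma FDR = 0.969), and it was 0.060 without non-Dbx1 replicate 3.

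Dcc, the attractive netrin receptor, measured 3.61, 0.0797 and 0.331 in Dbx1 samples, against 1.28, 1.15 and 0.382 in non-Dbx1 samples. Its range within the Dbx1 samples was 45.3-fold and enclosed the non-Dbx1 samples, which spanned 3.36-fold. Dbx1 replicate 1, which had the most Dcc, also had the most Ntn1 of the Dbx1 samples. The L2FC was -0.011 (SE 0.603, 95% interval -1.39 to 1.37, limma FDR = 0.999). It was -0.66 without Dbx1 replicate 1 and 0.39 without Dbx1 replicate 2.

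Neo1 (ENSMUSG00000032340, chromosome 9, 58874687 to 59036441, minus strand) encodes neogenin, the receptor most like Dcc in sequence, which binds netrins and the repulsive guidance molecules. It measured 4.59, 3.59 and 10.1 in Dbx1 samples, against 8.38, 9.82 and 7.29 in non-Dbx1 samples. It was the steadiest of the 10, with 2.81-fold from lowest to highest sample and at least 383 reads in each. The highest and both lowest values were all in Dbx1 samples (6.10 ± 3.51, against 8.50 ± 1.26 in non-Dbx1 samples, SD, n = 3), and the L2FC of -0.52 (SE 0.450, 95% interval -1.55 to 0.51) was not called (limma FDR = 0.951). It was -0.26 without Dbx1 replicate 2 and -0.90 without Dbx1 replicate 3. Neo1 was higher than Dcc in 6 of 6 samples, by 1.27 to 45.1 times.

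Unc5c (ENSMUSG00000059921, chromosome 3, 141465216 to 141834924, plus strand), a netrin receptor that mediates repulsion, measured 1.37, 0 and 1.82 in Dbx1 samples, against 0.118, 0.904 and 0.968 in non-Dbx1 samples. The sample without a read, Dbx1 replicate 2, had a floor of 0.0168, and the other Dbx1 samples, with 257 and 299 reads, were the highest of all. The groups overlapped in full (L2FC 0.22, SE 0.495, 95% interval -0.91 to 1.35, limma FDR = 0.979). Exons of Unc5c overlap those of Gm15688, a gene annotated on the opposite strand, and reads were counted without strand, so reads on the shared bases could not be assigned to either by strand. The other members shared no exonic bases with another annotated gene.

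Of the 60 gene and sample pairs, 56 reached 3 reads, and all 4 that did not, 3 of Robo3 and 1 of Unc5c, had no read. Neo1 and Robo2 were above 1 RPKM in 6 samples, Robo1 and Slit1 in 5, Slit2 in 4, Slit3 and Dcc in 3, Ntn1 and Unc5c in 2 and Robo3 in none. By mean RPKM over 6 samples the order was Neo1 at 7.30 ± 2.70, Robo2 at 5.72 ± 2.73, Slit1 at 4.21 ± 2.38, Robo1 at 3.49 ± 2.02, Slit3 at 1.65 ± 2.25, Slit2 at 1.54 ± 0.963, Dcc at 1.14 ± 1.30, Unc5c at 0.862 ± 0.703, Ntn1 at 0.719 ± 0.763 and Robo3 at 0.0332 ± 0.0478 (SD, n = 6). No step of this order between neighbours was larger than its spread within samples. Of 9 neighbour pairs, none had an adjusted p under 0.1 in the exact two-sided sign-change test, and the step with the lowest p was that from Ntn1 to Robo3, higher in 5 of 6 samples (p = 0.0625, adjusted over the 9 pairs 0.562). The smallest p of this test over 6 samples is 0.03125, so a lone step could not pass 0.1 once adjusted over 9 pairs. The test therefore could not resolve a lone step of the order.

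The order also depended on the exon length by which reads were divided. The lengths recovered from the deposited values exceeded the merged exon length of the GENCODE vM21 annotation for 8 of the 10 genes, Robo1 and Dcc being the others. The cause of the longer lengths was not tested. Recovered lengths are the smallest that fit, so the length of Dcc, like its reads, may be a multiple. The length used for Robo1, 7563 bases, was exactly that of its longest coding transcript, which has 29 exons. The length used for Robo2 was 24306 bases, while its longest coding transcript has 8591. The deposited length for Slit2 was 42231 bases, and its longest coding transcript has 9960. For Slit1 the corresponding lengths were 7945 and 5673 bases, and for Neo1 they were 14157 and 7379.

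With the merged exon length the order was Neo1 at 11.9 ± 4.39, Robo2 at 8.19 ± 3.90, Slit1 at 5.65 ± 3.20, Slit2 at 2.55 ± 1.60, Slit3 at 1.99 ± 2.72, Robo1 at 1.60 ± 0.927, Unc5c at 1.07 ± 0.870, Dcc at 0.864 ± 0.988, Ntn1 at 0.806 ± 0.855 and Robo3 at 0.0581 ± 0.0836 (SD, n = 6), so that Robo1 fell from the fourth to the sixth place. Dividing the same reads by the length of the longest coding transcript, a choice made after seeing the data, put Robo2 first at 16.2 ± 7.71 RPKM, ahead of Neo1 at 14.0 ± 5.18, and moved Slit2 from the sixth to the third place at 6.52 ± 4.09, ahead of Slit1 at 5.90 ± 3.33 (SD, n = 6). The places of Dcc rest on its recovered reads, of which the true number may be a multiple.

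The ratios of some pairs within samples, chosen after seeing the data, are given as a description, without p-values. Under the longest coding length Robo2 was 5.29, 3.36 and 34.2 times Robo1 in Dbx1 samples, against 2.66, 1.49 and 8.20 times in non-Dbx1 samples. It was the higher in 6 of 6 samples by this length and by the merged length (1.65 to 37.8 times), and in 4 of 6 by the deposited length. Slit2 exceeded Slit1 in 1 of 6 samples by the deposited length, in 2 of 6 by the merged and in 4 of 6 by the longest coding length. Neo1 was above Dcc in 6 of 6 samples by each of the lengths. These lengths do not say which transcripts the reads came from, and reads on exons outside the longest coding transcript remained in the counts.

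**Figure D3:**
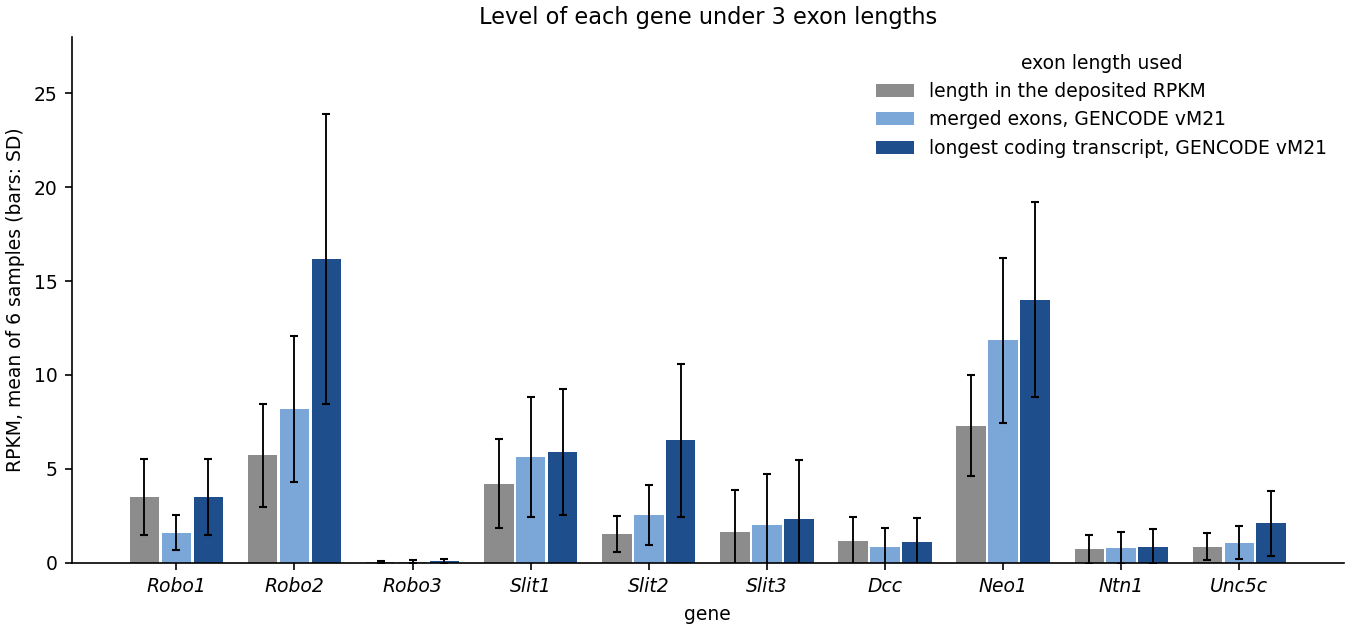
Mean RPKM over 6 samples (vertical axis, bars from 0, error bars SD and cut at 0) of each of the 10 genes when the same reads are divided by the exon length in the deposited values (grey), the merged exon length of GENCODE vM21 (light blue) or the length of the longest coding transcript (dark blue). Robo2 goes from 5.72 to 16.2 and Slit2 from 1.54 to 6.52 between the outer bars, while Robo1 is at 3.49 in both and at 1.60 with the merged length.

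The other genes of the system were read from 4 lists of 51 genes, of which 50 had a row (Ntn3 was not analysed here), all 50 had a non-zero value and 46 passed the filter on low values. None had an FDR under 0.1 in limma. Their L2FC was above 0 for 24 and below 0 for 22, with a median of 0.036 beside 0.0089 over all tested genes. Non-overlapping groups were seen in 3 of the 46, of which 2 were higher in Dbx1 samples, beside 5.35% of all tested genes, and 1 in non-Dbx1 samples, beside 5.24%, and an unadjusted p under 0.05 in 2 (Nell2 and Sos1), beside 5.2%.

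Of 12 other ligands with a row, 10 were tested, with a median L2FC of 0.22, and the most abundant was Nell2, the ligand of Robo3. It measured 62.3, 63.6 and 66.6 RPKM in Dbx1 samples, against 35.2, 37.7 and 39.9 in non-Dbx1 samples. Both groups were tight and far apart, with a gap more than the whole range of either. The means were 64.2 ± 2.19 and 37.6 ± 2.35 (SD, n = 3), and the L2FC was 0.76 with an SE of 0.207 (95% interval 0.29 to 1.23). The unadjusted p was 0.0058, but with 17614 genes tested limma did not call it (FDR = 0.787). The ligand thus had at least 821 reads in every sample where its receptor Robo3 had at most 11. Rgmb, a ligand of neogenin, was next at 34.4 RPKM over 6 samples (L2FC 0.034), followed by Nell1 at 18.3 (0.46), and the largest L2FC below 0 among ligands with a mean of at least 1 RPKM was that of Flrt3, a membrane protein that binds Robo and Unc5 receptors (-0.015). With the merged exon length Nell2 stayed first at 39.3, but Rgmb, at 11.8, fell below Nell1 at 24.9 and Flrt3 at 19.5. The recovered reads of Rgmb, from a length below the merged one, may be a multiple short of the true number.

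Of 10 other receptors, 9 were tested, 3 with L2FC above 0 and 6 below, and their groups all overlapped (median L2FC -0.11). Gpc1, a heparan sulphate proteoglycan, had the highest mean at 31.7 RPKM, followed by Dscam, a netrin-binding adhesion molecule, at 14.03 and Lrrc4c, a receptor for netrin-G1, at 8.98. The largest L2FC were those of Unc5a (0.28, SE 0.519) and of the netrin-G2 receptor Lrrc4 (-0.89, SE 0.664), and limma called neither (FDR = 0.972 and 0.942). Robo4, the Robo receptor known from endothelial cells, was not tested, since it was listed above 0 only in non-Dbx1 replicate 1 (0.280) and non-Dbx1 replicate 2 (5.42). Non-Dbx1 replicate 2 was also the sample with the endothelial sum of 65.4, of which Cldn5 made 63.7, and non-Dbx1 replicate 1 had the next highest, 2.96. The part of such cells in the values of the other members was not tested.

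All 18 intracellular partners, which carry the signal from the receptors to the cytoskeleton, were tested (7 with L2FC above 0, 11 below, median -0.11). The most abundant were the GTPase Cdc42 at 277.6 RPKM, the kinase Fyn at 37.8 and the kinase Pak1 at 32.8. Sos1, an exchange factor recruited to Robo receptors, measured 6.22, 5.49 and 20.3 in Dbx1 samples, against 2.29, 2.74 and 2.77 in non-Dbx1 samples. The groups did not overlap, and Dbx1 replicate 3 stood well above the rest. Its L2FC was 1.48 (SE 0.559), with an unadjusted p of 0.0284 in limma and an FDR of 0.912. At the other end was the adaptor Nck1, which links Dcc to the cytoskeleton, with an L2FC of -0.79 (SE 0.509, FDR = 0.936).

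Of 10 regulators of Robo and Dcc processing, 9 were tested (6 with L2FC above 0, 3 below, median 0.17). Ndfip1, an adaptor that targets Robo1 for degradation together with Ndfip2, was the most abundant of all these genes, at 783, 761 and 435 RPKM in Dbx1 samples, against 447, 652 and 775 in non-Dbx1 samples. These values used a length of 930 bases, and the merged exon length of 6331 bases gave a mean of 94.3 RPKM in place of 642, below the 282.6 of Cdc42 on that scale. The recovered length of Ndfip1 is below its longest coding transcript of 1796 bases. As with Dcc, its true reads may be a multiple, which would raise the 94.3 by the same factor. Nova1, a splicing factor, had a mean of 35.4 and Ctnna2, an alpha-catenin, of 22.9, an order that turned with the merged exon length (28.4 and 31.7). Ndfip2 measured 11.6, 10.9 and 6.74 in Dbx1 samples, against 11.6, 15.3 and 12.2 in non-Dbx1 samples, so that the groups met at 11.6 without crossing (L2FC -0.41, SE 0.339, limma FDR = 0.949). The largest L2FC among processing genes were 0.37 for Usp33 (SE 0.586), a deubiquitinase that acts on Robo1, and -0.87 for Adam10 (SE 0.770), a sheddase, which had 1 read in Dbx1 replicate 1 and 4.34 to 6.92 RPKM in the other 5 samples.

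**Figure D4:**
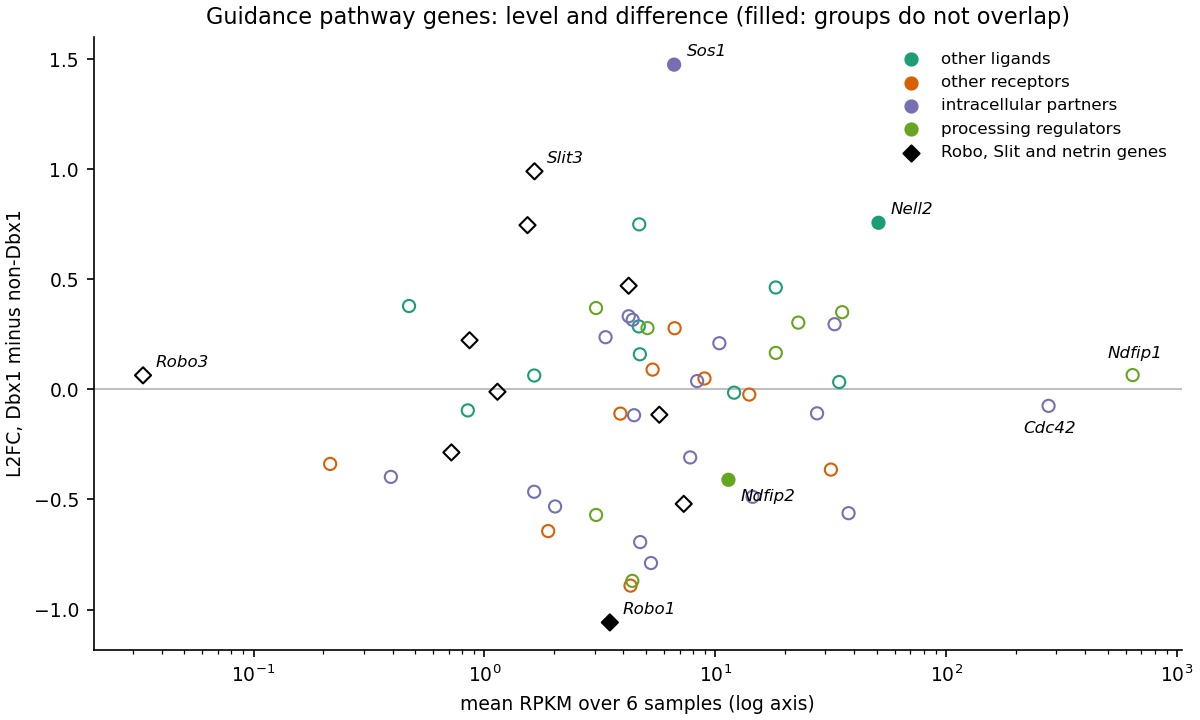
L2FC (vertical axis, Dbx1 minus non-Dbx1) against mean RPKM over 6 samples (horizontal log axis) for the 10 Robo, Slit and netrin genes (black diamonds) and the 46 tested genes of the 4 other lists (coloured circles by list), filled where the groups did not overlap. Filled symbols are Robo1 (whose groups overlapped with size factors), Nell2, Sos1 and Ndfip2, and none of the genes shown had an FDR under 0.1.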

How the data were processed

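RNA from 6 samples of 15 preBötC neurons (3 Dbx1, 3 non-Dbx1, grouped by the labelled cell type) had been amplified as cDNA (SMART-Seq v4) and sequenced. The authors aligned reads to mm10 with TopHat2, counted them without strand with HTSeq on an Ensembl annotation whose release is not given in the sources used here, and deposited RPKM values, unscaled between samples. The authors tested counts with DESeq2. Here RPKM was tested, and reads recovered from it served for detection floors, counting intervals, other exon lengths and a voom alternative.

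Reads on genes and per gene were recovered from the steps between RPKM values (tolerance 2e-05) for all 27067 genes above 0. The smallest whole numbers that fit were used, so true reads may be a multiple of them. This may be so for Dcc and for other genes, such as Ndfip1 and Rgmb, whose recovered length is below the merged exon length. Positions and lengths came from GENCODE vM21 (GRCm38) by gene name (95.3% matched). Reads below 3 were taken as not detected.

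Log2(RPKM + 1) was fitted with limma 3.58.1 in R 4.3.3 (trend, group only, all 6 samples, two-sided, Benjamini-Hochberg FDR, threshold 0.1) over the 17614 genes above 0 in at least 3 samples, after it was tested on simulated data. The simulation gave all genes the same dispersion and changed only genes with many reads, so it does not cover members with few reads. Mean differences were also compared by exact two-sided permutation tests (smallest p 0.10), and neighbours in the order of levels by exact two-sided sign changes (smallest p 0.03125). The within-sample pairs Robo2 and Robo1, Slit2 and Slit1, Neo1 and Dcc, and Neo1 and Robo2 were chosen after seeing the data. Exact sign-change tests of these pairs were run but are not used, because the pairs were picked from the same data. Neo1 and Robo2 were also neighbours in the order of levels and were tested as such. The remaining steps used Python 3.11.15 (scipy 1.17.1, pandas 2.3.3, numpy 2.4.6, matplotlib 3.10.9).

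Members and lists were chosen with earlier results of these data known. Named from each other list were the 3 genes with the highest mean RPKM and, with a mean of at least 1 RPKM, the largest L2FC in each direction and all genes with FDR under 0.1 or non-overlapping groups. A gene of the processing list is not reported here. Robo4 was added after its values were seen. For the 3 members with the largest absolute L2FC, the 3 genes most like each were named, among those with a mean of at least 5 RPKM. The alternatives were a pseudocount of 0.1, no filter, a minimum of 1 RPKM in 3 samples or more, size factors, quantile normalization, no trend, a replicate block, voom on recovered reads (at least 10 in at least 3 samples), each sample left out, each group alone, other detection floors and the merged exon length, and the longest coding length, which was added after seeing the data. Sample numbers came from the labels. Same-numbered samples did not deviate together (correlations -0.11, 0.02 and -0.05), so the numbers were not treated as pairs. P-values measure the spread between samples from different mice.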

Additional observations from a re-analysis of the deposited data

How the results depend on the processing

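The alternative fits gave 136 L2FC values for the 10 genes. None had an FDR under 0.1 (lowest 0.784), and 124 kept the sign of the main fit. No filter, a minimum of 1 RPKM, no trend and a replicate block leave the L2FC itself unchanged, so its sign could not turn there. With 3 samples a group, the 95% intervals of 9 of the 10 genes, all but Robo3, included an L2FC of 1 or -1, and for Robo3 the log2(RPKM + 1) scale cannot show such a change. With a pseudocount of 0.1 and with voom, in that order, the L2FC was 1.74 and 1.92 for Slit3, 1.26 and 1.26 for Slit2, 1.05 and 1.29 for Slit1, -0.89 and -1.23 for Ntn1 and -0.51 and -0.67 for Dcc. With 1 sample left out, the L2FC ran from -0.48 to 0.24 for Robo2, from -0.39 to 1.04 for Slit1, from -0.66 to 0.39 for Dcc, from -0.68 to 0.060 for Ntn1 and from -0.067 to 0.68 for Unc5c, which was also -1.53 with voom on recovered reads. The sign turned without Dbx1 replicate 1 or 2 or non-Dbx1 replicate 3 for Robo2, without non-Dbx1 replicate 2 for Slit1, without Dbx1 replicate 2 or 3 or non-Dbx1 replicate 1 or 2 for Dcc, without non-Dbx1 replicate 3 for Ntn1 and without Dbx1 replicate 3 or non-Dbx1 replicate 1 for Unc5c. The cause was not tested. Robo1 had p under 0.05 without the trend, and Slit2 with voom, before adjustment. Robo1 and Slit2 had non-overlapping groups after quantile normalization. Robo3 had too few reads for voom.

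Over all genes, 1 was called, against 0 with a pseudocount of 0.1, without a filter and with voom, 3 without the trend, and 0 to 1 with 1 sample left out, being 0 without Dbx1 replicate 2 or 3 or non-Dbx1 replicate 1 or 3. In the fit with a replicate block, a pairing the samples did not show, 0 genes were called and 819 had p under 0.05, against 916, with 0 of the 10 in each. Detection fell from 56 to 36 gene and sample pairs at 1 RPKM.

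Within samples, the log2 difference of Neo1 and Robo2 was -0.16 with the longest coding length, and that of Dcc and Unc5c was -0.16 with the merged and -0.50 with the longest coding length, values that rest on the recovered reads of Dcc, of which the true number may be a multiple. With 1 sample left out it ran from -0.069 to 0.35 for Dcc and Unc5c, from -0.11 to 0.68 for Slit1 and Robo1, from -0.43 to 0.049 for Slit3 and Slit2 and from -0.12 to 0.26 for Unc5c and Ntn1.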

Other observations

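Among 7055 genes with a mean of at least 5 RPKM, those whose centred log2(RPKM + 1) followed Robo1 most closely over the 6 samples were Il4 (mean absolute difference 0.153), Dync1i2 (0.158) and Gm1976 (0.171). Dync1i2, a subunit of the dynein motor, measured 5.36, 8.50 and 3.48 RPKM in Dbx1 samples, against 10.4, 11.9 and 8.69 in non-Dbx1 samples. For Slit3 they were Smim11 (0.193), Tmem205 (0.233) and Tmem175 (0.245), a lysosomal potassium channel, each highest in Dbx1 replicate 2 as Slit3 was. For Slit2 they were B3galt2 (0.0804), a galactosyltransferase, Atf6b (0.102), a transcription factor of the stress response of the endoplasmic reticulum, and Chst2 (0.120), a sulphotransferase. B3galt2 measured 5.40, 6.92 and 12.5 RPKM in Dbx1 samples, against 2.80, 4.10 and 5.39 in non-Dbx1 samples, in the same order within each group as Slit2. These are given as a description, over 6 samples that share 2 groups, with no test.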
